A study of Homo sapiens with 6 samples.

Results

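The genes described here are 31 genes of homologous recombination and the Fanconi anaemia pathway, taken by symbol from a gene table of 59008 rows. All 31 were found in the table, and each had a mean above 1 TPM (transcripts per 1000000 transcripts) over the 6 libraries, which placed it among the 14988 genes tested throughout. The study followed polyploid giant cancer cells (PGCCs), enlarged cells with multiplied genomes that survive an antimitotic drug, and the smaller daughter cells that bud from them. Hey and SKOV3, both established human ovarian cancer cell lines, each gave 1 library of untreated parental cells, 1 of PGCCs and 1 of daughter cells. PGCCs and daughter cells of both lines had received 500 nM paclitaxel, a drug that stabilises microtubules and arrests mitosis, for 16 h. Hey PGCCs were labelled as recovered for 3 days and the daughter cells of both lines as recovered for 30 days. For SKOV3 PGCCs the treatment label gives 3 days of recovery and the title gives day 7. Each daughter library is labelled clone 1, so each stands for 1 clone of its line. With 1 library per condition no replicate spread exists within a line. The table holds TPM and no read count per gene, and no counting interval is given.

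Homologous recombination repairs broken chromosomes by copying the sister chromatid, so it is used mainly in S and G2 phase. Kinases sense the damage, nucleases and helicases trim the broken ends, the BRCA proteins prepare the trimmed strand, and the XRCC2, XRCC3 and RAD54 proteins help it to invade its template. The Fanconi anaemia pathway works at DNA crosslinks that stall replication forks: a core complex attaches ubiquitin to FANCD2 and FANCI, which opens the crosslink to nucleases and hands the break to recombination. Many genes of both pathways are transcribed mainly in dividing cells.

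The SKOV3 PGCC library differed from the SKOV3 parental library along transcript GC content, with a Spearman correlation of 0.72 across 13468 genes, against -0.04 for the same comparison in Hey. Correlations across genes describe a pair of libraries, since genes are not replicates. The 31 genes have GC-poor transcripts (median 41.8%, range 35.8 to 62.8%) beside all genes tested (median 47.7%), so the SKOV3 PGCC counts of these genes and of the comparison lists are also given after removal of the GC and length trend. Mitochondrial transcripts took 2.64 to 14.8% of the TPM, with 2.64% in Hey parental cells and 12.3% in Hey PGCCs. Keratins KRT7, KRT8 and KRT18 and the Müllerian factor PAX8 were present in all 6 libraries, at 54.7 TPM or more. EPCAM, CDH1 and MUC16 were at 1.43 TPM or less in the Hey libraries. In SKOV3 parental cells, PGCCs and daughter cells EPCAM was at 68.8, 43.6 and 8.15 TPM. CDH1 was at 1.47, 4.35 and 8.35 TPM there, and MUC16 at 1.15, 1.59 and 0.006 TPM. In the same order KRT19 was at 2.47, 3.60 and 0 TPM in Hey and 292, 711 and 80.2 TPM in SKOV3. WT1 was at 4.10 TPM or less in every library. ERBB2 was at 8.20 to 14.1 TPM in Hey and 1127 to 1778 TPM in SKOV3. PTPRC, which defines leukocytes, was at 0.425 TPM or less in every library, and the 5 leukocyte markers summed to 45.7 to 69.5 TPM in Hey and 1.69 to 20.5 TPM in SKOV3, with CD68 as the largest part in each library. The 7 fibroblast markers summed to 0.263 to 3.64 TPM in Hey and 12.6 to 28.2 TPM in SKOV3. In Hey, CDH5, an endothelial cadherin, was at 33.2 to 48.5 TPM in all 3 libraries. The other endothelial markers, PECAM1 and VWF, were at 0.272 TPM or less there. Any part of these markers in the results was not tested. In bulk RNA a smaller number of expressing cells and less RNA per cell cannot be told apart.

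PGCCs against parental cells asked whether repair genes differ in the giant state. In Hey PGCCs, 30 of the 31 genes were below the parental level, beside 7123 of the 14988 genes tested. Of the 31, 21 were lower by at least 2-fold, a difference of 1 or more on the log2(TPM + 1) scale. Among all genes tested, 5.22% were lower by at least 2-fold in that comparison and 7.67% higher, while none of the 31 was higher by that much. The median difference of the 31 genes was -1.35, beside 0 for all genes tested. In SKOV3 PGCCs the differences were smaller: 26 of the 31 were below parental cells, beside 7046 of the 14988 genes tested. Of the 31, 6 were lower by at least 2-fold beside 4.96% of all genes tested, none was higher by 2-fold beside 9.94%, and the median was -0.49 beside 0.02. After removal of the GC and length trend, 21 genes were lower by at least 2-fold in Hey (median -1.36) and 2 in SKOV3 (median -0.26), and in SKOV3 2.48% of 13468 genes were lower and 2.37% higher under that setting. The summed level of the 31 genes was 694, 315 and 840 TPM in Hey parental cells, PGCCs and daughter cells and 1222, 825 and 1080 TPM in SKOV3.

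**Figure D1:**
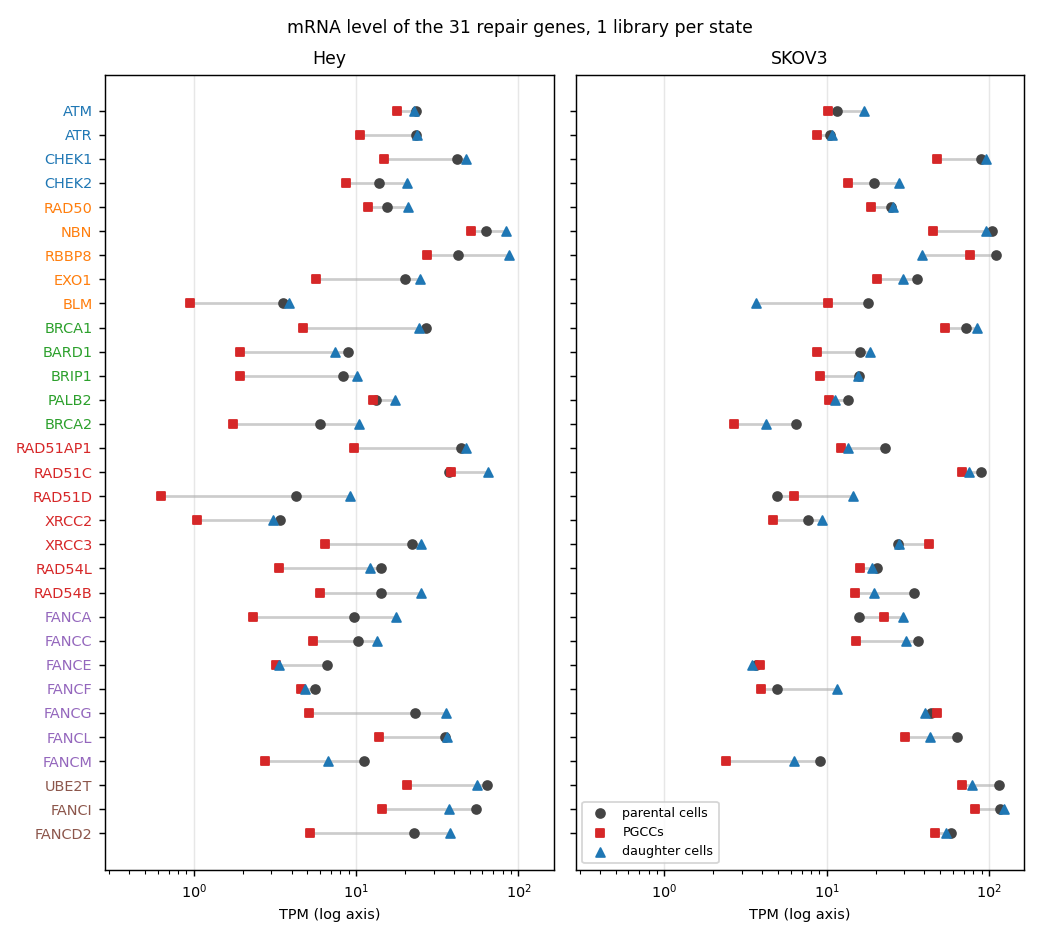
TPM of each of the 31 repair genes on a log axis in Hey (left) and SKOV3 (right), with 1 point for each library: circles are parental cells, squares PGCCs and triangles daughter cells, and the colour of a gene name marks its role. The PGCC square is the lowest of the 3 points for 30 of 31 genes in Hey and for 24 of 31 in SKOV3. Among all genes tested the PGCC library was lowest for 38.9% in Hey and 37.5% in SKOV3.

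The kinases that sense and signal damage come first. Values below are in TPM and in the order parental cells, PGCCs, daughter cells. CHEK1, the effector kinase of the replication checkpoint, was at 41.6, 14.8 and 47.5 TPM in Hey and 89.7, 48.1 and 95.6 TPM in SKOV3. It was lowest in the PGCCs of both lines, with differences from parental cells of -1.43 in Hey and -0.89 in SKOV3. ATR, the kinase upstream of CHEK1 at stalled forks, was at 23.4, 10.5 and 23.7 TPM in Hey and 10.5, 8.68 and 10.7 TPM in SKOV3. Its Hey difference of -1.08 passed 2-fold and its SKOV3 difference of -0.25 did not; with mitochondrial genes left out the Hey value was -0.95. After removal of the GC and length trend the SKOV3 difference was 0.12 for ATR and 0.19 for ATM. ATM, which answers broken ends, differed by -0.37 and -0.16 before that removal, and CHEK2, the kinase it activates, by -0.62 and -0.49. The kinases so had 2 of 4 genes lower by at least 2-fold in Hey and 0 of 4 in SKOV3, beside 5.22% and 4.96% of all genes tested. The same shares stand beside the counts of each role below.

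Genes that process the ends were uneven. EXO1, a nuclease that lengthens the resected strand, was at 20.0, 5.68 and 24.7 TPM in Hey and 35.8, 20.3 and 29.6 TPM in SKOV3, and differed by -1.65 and -0.79 in PGCCs. BLM, the helicase that unwinds the ends and dissolves crossed strands, was at 3.54, 0.947 and 3.88 TPM in Hey and 17.9, 10.2 and 3.64 TPM in SKOV3. PGCCs differed by -1.22 and -0.76, and in SKOV3 its lowest library was that of the daughter cells. RBBP8, which encodes the CtIP protein that starts resection, was at 42.5, 27.2 and 87.5 TPM in Hey and 109.7, 76.8 and 38.8 TPM in SKOV3. PGCCs differed by -0.62 and -0.51, while the daughter cells held its highest Hey level and its lowest SKOV3 level. NBN and RAD50 belong with MRE11 to the complex that binds the break. NBN was at 63.0, 51.1 and 83.3 TPM in Hey and 105, 45.4 and 96.4 TPM in SKOV3; its SKOV3 difference of -1.19 was -0.58 after removal of the GC and length trend. RAD50 differed by -0.36 in Hey and -0.38 in SKOV3. End processing so had 2 of 5 genes lower by at least 2-fold in Hey, EXO1 and BLM, and 1 of 5 in SKOV3, NBN.

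Of the 5 genes of the BRCA complexes, 4 were lower by at least 2-fold in Hey PGCCs and 1 in SKOV3 PGCCs. BRCA1 (chr17:43044295-43170245 on the minus strand of GRCh38), the ubiquitin ligase that directs breaks to recombination, was at 27.0, 4.73 and 24.4 TPM in Hey and 71.9, 53.8 and 84.5 TPM in SKOV3. Its Hey difference of -2.29 was the largest of the 31 genes on the log2(TPM + 1) scale, and its SKOV3 difference was -0.41. BARD1, the partner that BRCA1 needs for ligase activity, was at 8.94, 1.92 and 7.37 TPM in Hey and 16.0, 8.66 and 18.4 TPM in SKOV3, with differences of -1.77 and -0.81. BRIP1, a helicase that binds BRCA1, was at 8.30, 1.92 and 10.1 TPM in Hey and 15.7, 9.14 and 15.6 TPM in SKOV3, with differences of -1.67 and -0.72. The TPM of BRCA1, BARD1 and BRIP1 was 5.71-, 4.66- and 4.32-fold lower in Hey PGCCs and 1.34-, 1.85- and 1.72-fold lower in SKOV3 PGCCs. BRCA2 (chr13:32315086-32400268 on the plus strand), which acts on the trimmed strand before it invades, was at 6.01, 1.74 and 10.3 TPM in Hey and 6.51, 2.68 and 4.21 TPM in SKOV3. It passed 2-fold in both lines (-1.35 and -1.03), but the SKOV3 difference was -0.55 with the trend removed. PALB2, which bridges BRCA1 and BRCA2, stood apart from its partners in Hey PGCCs: it was at 13.3, 12.6 and 17.4 TPM in Hey and 13.6, 10.4 and 11.2 TPM in SKOV3, with differences of -0.06 and -0.36. In SKOV3 PGCCs it lay near BRCA1 (-0.41). With the trend removed the SKOV3 values were -0.05 for PALB2 and -0.16 for BRCA1.

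Among the strand exchange genes, 6 of 7 were lower by at least 2-fold in Hey PGCCs and 1 of 7 in SKOV3 PGCCs. RAD51AP1, which promotes strand invasion, was at 44.5, 9.75 and 47.5 TPM in Hey and 22.9, 12.3 and 13.5 TPM in SKOV3, with differences of -2.08 and -0.84. RAD54L, a motor protein that helps to open the template, was at 14.2, 3.36 and 12.1 TPM in Hey and 20.4, 16.0 and 19.1 TPM in SKOV3, with differences of -1.80 and -0.34. Its relative RAD54B passed 2-fold in both lines, at 14.3, 6.02 and 25.2 TPM in Hey (-1.12) and 34.5, 15.0 and 19.5 TPM in SKOV3 (-1.15). The RAD54B call ended in Hey with mitochondrial genes left out (-0.99) and in SKOV3 with the trend removed (-0.52). RAD51C, RAD51D, XRCC2 and XRCC3, which work in shared complexes during strand exchange, were uneven. RAD51D was at 4.26, 0.623 and 9.21 TPM in Hey and 4.94, 6.28 and 14.5 TPM in SKOV3, and its Hey PGCC value was the lowest level of any of the 31 genes in any library. It differed by -1.70 in Hey PGCCs and 0.30 in SKOV3 PGCCs. XRCC2, the partner of RAD51D, was at 3.38, 1.04 and 3.09 TPM in Hey and 7.63, 4.65 and 9.39 TPM in SKOV3, with differences of -1.10 and -0.61. XRCC3 was at 22.2, 6.43 and 24.9 TPM in Hey and 27.5, 42.6 and 27.7 TPM in SKOV3, so that PGCCs held its lowest Hey level (-1.64) and its highest SKOV3 level (0.61, or -0.26 after the trend was removed). RAD51C, the partner of XRCC3, was at 37.4, 38.6 and 65.0 TPM in Hey and 89.2, 67.8 and 75.1 TPM in SKOV3. It was the 1 gene of the 31 above the parental level in Hey PGCCs, by 0.04.

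The Fanconi core complex held the gene with the largest SKOV3 difference. FANCM (chr14:45135930-45200890 on the plus strand), the translocase that anchors the core complex to the fork, was at 11.1, 2.74 and 6.72 TPM in Hey and 9.10, 2.39 and 6.28 TPM in SKOV3. PGCCs were lowest in both lines, 4.06-fold below parental cells in Hey TPM and 3.80-fold in SKOV3, with differences of -1.70 and -1.57. After removal of the GC and length trend the differences were -1.64 and -1.09. FANCL, the ubiquitin ligase of the complex, was at 35.4, 13.9 and 36.1 TPM in Hey and 63.3, 30.3 and 43.4 TPM in SKOV3, with differences of -1.29 and -1.04, the latter -0.45 with the trend removed. FANCC, a scaffold subunit, was at 10.3, 5.46 and 13.4 TPM in Hey and 36.4, 15.1 and 30.6 TPM in SKOV3. Its SKOV3 difference of -1.22 was -1.38 with the trend removed, and its Hey difference was -0.81. FANCA and FANCG, which bind each other in the complex, had opposite signs in the 2 lines, a difference that was not tested. FANCA was at 9.74, 2.33 and 17.5 TPM in Hey and 15.7, 22.4 and 29.7 TPM in SKOV3. FANCG was at 23.1, 5.14 and 35.9 TPM in Hey and 44.2, 48.0 and 40.1 TPM in SKOV3. Both were lower by at least 2-fold in Hey PGCCs (-1.69 and -1.97) and above the parental level in SKOV3 PGCCs (0.49 and 0.12); with the trend removed the SKOV3 values were -0.03 and -0.45. FANCE and FANCF, which link FANCD2 and FANCM to the core, stayed under 2-fold in PGCCs of both lines, with -0.86 and 0.07 for FANCE and -0.23 and -0.27 for FANCF. FANCE was at -1.02 in Hey with a pseudocount of 0.1 and at -0.52 in SKOV3 with the trend removed.

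The step that the core complex serves was lower in Hey PGCCs in all 3 of its genes and in none of the 3 by 2-fold in SKOV3 PGCCs. UBE2T, the ubiquitin-conjugating enzyme, was at 64.1, 20.5 and 55.7 TPM in Hey and 114, 68.4 and 78.7 TPM in SKOV3. FANCD2, the substrate, was at 22.7, 5.20 and 37.6 TPM in Hey and 58.6, 46.7 and 54.5 TPM in SKOV3. FANCI, its partner, was at 54.7, 14.4 and 37.1 TPM in Hey and 117, 82.5 and 124 TPM in SKOV3. The differences in PGCCs were -1.60, -1.94 and -1.86 in Hey and -0.74, -0.32 and -0.49 in SKOV3. FANCI also held the highest level of the 31 genes in each of the 3 SKOV3 libraries.

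**Figure D2:**
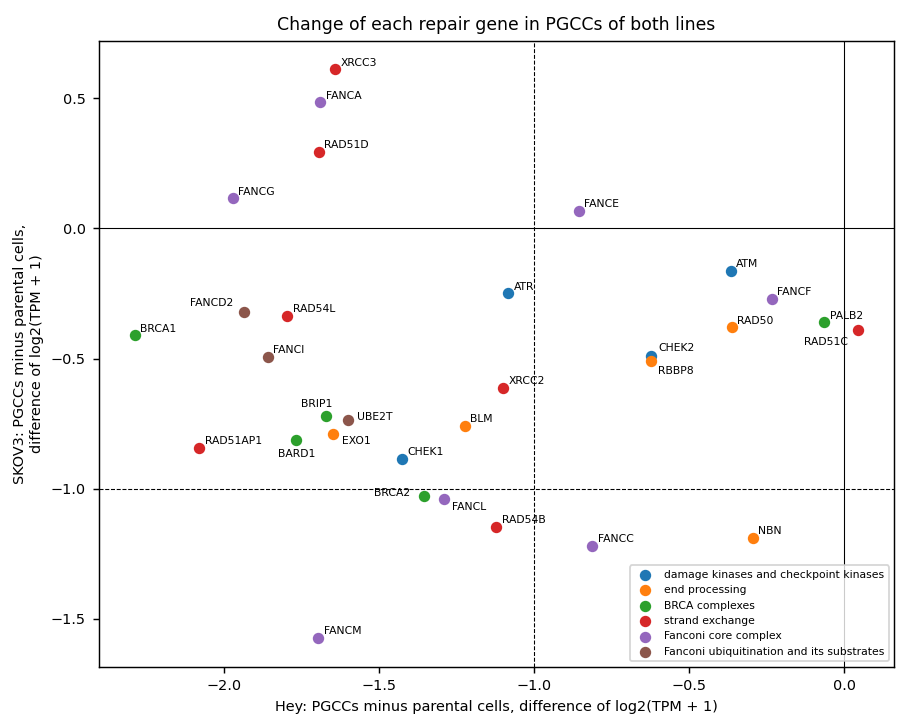
Difference of log2(TPM + 1) between PGCCs and parental cells for each of the 31 genes, Hey on the horizontal axis and SKOV3 on the vertical axis, coloured by role; dashed lines mark a 2-fold lower level. BRCA2, RAD54B, FANCL and FANCM lie beyond both dashed lines, and XRCC3, FANCA, RAD51D and FANCG lie left of the Hey line and above 0 in SKOV3.

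Across the lines, 25 of the 31 genes (80.6%) were below parental cells in PGCCs of both, beside 22.3% of all genes tested. BRCA2, RAD54B, FANCL and FANCM were the 4 lower by at least 2-fold in both lines, beside 0.834% of all genes tested. After removal of the GC and length trend 1 remained, FANCM, beside 0.282%. The Hey difference was below the SKOV3 difference for 24 of the 31 genes (77.4%, beside 50.6% of all genes tested), with a median gap of -0.54. The size of a gene's difference in Hey told little of its size in SKOV3: over the 31 genes Spearman's rho was -0.02 and Pearson's r -0.05. Over all genes tested the values were -0.02 and -0.005, so this was not particular to the 31. These are a description of 4 libraries, with the GC and length trend still in place.

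A single fit across both lines was made with limma, with state and cell line as terms. The spread it uses comes from the disagreement of the lines, drawn for each gene toward that of genes at a similar level. For PGCCs against parental cells, 0 of the 31 genes passed an adjusted p of 0.05 (limma, Benjamini-Hochberg adjusted p = 1 for each), while 3 of the 14988 genes (0.02%) did. At an unadjusted p under 0.05, 11 of the 31 were lower and 0 higher, beside 1.57% and 1.16% of all genes tested. FANCM had the smallest unadjusted value of these, with a fitted difference of -1.64 (SE 0.42, limma adjusted p = 1). CHEK1 followed, at -1.16 (SE 0.38, limma adjusted p = 1). The other 9 were EXO1, BRCA1, BARD1, BRIP1, RAD51AP1, FANCC, FANCL, UBE2T and FANCI. The fitted values still carry the GC and length trend of the SKOV3 PGCC library. No limma setting removed that trend, so its part in these p-values was not tested.

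The SKOV3 result was read against GC content. Of the 10 genes with a transcript GC content under 40%, 5 were lower by at least 2-fold in SKOV3 PGCCs (median -0.93), beside 14.3% of the 2355 genes tested in that range (median -0.53). Of the 13 genes between 40 and 45%, 0 were lower by 2-fold (median -0.49), beside 5.79% of 2988 genes (median -0.29). The 6 genes at 50% or above had a median of 0.09, beside 0.57 for 5763 genes, and FANCC was the 1 of them lower by 2-fold. In Hey the median of the 31 genes was between -1.67 and -1.16 in every GC range, while the median of all genes tested stayed between -0.03 and 0.02. The 5 genes above parental cells in SKOV3 PGCCs were XRCC3, FANCA, RAD51D, FANCG and FANCE, with transcript GC contents of 62.8, 55.4, 47.1, 57.7 and 58.1%. RAD51D stayed above 0 (0.21) with the trend removed, and the other 4 were below 0. The part of GC content in the SKOV3 differences was not tested beyond removing the trend.

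**Figure D3:**
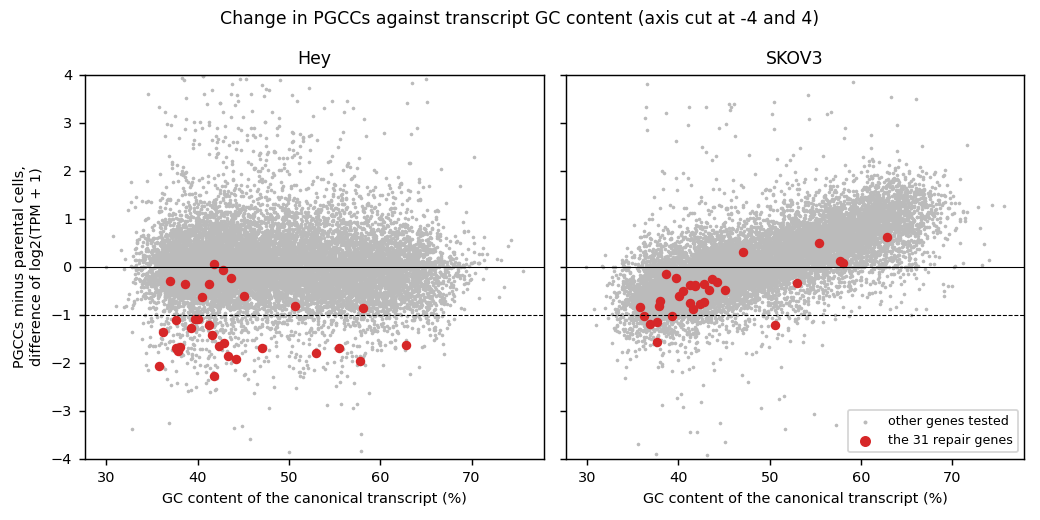
Difference of log2(TPM + 1) between PGCCs and parental cells against GC content of the canonical transcript in Hey (left) and SKOV3 (right), with grey points for other genes tested and red points for the 31 repair genes; the axis stops at -4 and 4, beyond which lie 40 points in Hey and 21 in SKOV3. In SKOV3 the cloud slopes upward with GC content and the red points follow its lower part, while in Hey the cloud is level and most red points lie below it.

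Daughter cells against parental cells asked whether the difference persists a month after the drug. In Hey daughter cells, 21 of the 31 genes were above the parental level, beside 8084 of the 14988 genes tested. The median was 0.19 beside 0.05 for all genes tested. RBBP8 was higher by at least 2-fold beside 6.31% of all genes tested (1.02), the 1 such gene of the 31, and 0 were lower beside 3.73%. The RBBP8 call ended under median-ratio scaling (0.90). RAD51D (0.96), FANCA (0.79), RAD51C (0.78), RAD54B (0.78) and FANCD2 (0.70) were next, all under 2-fold. FANCE (-0.81) and FANCM (-0.65) were the lowest against parental cells. In SKOV3 daughter cells the median was -0.09 beside 0.15, with 2 genes higher by at least 2-fold beside 15.1% of all genes tested and 2 lower beside 6.34%. RAD51D (1.39) and FANCF (1.07) were higher, and BLM (-2.03) and RBBP8 (-1.47) were lower. FANCF was at 5.55, 4.57 and 4.81 TPM in Hey and 4.94, 3.93 and 11.5 TPM in SKOV3, and its call ended under median-ratio scaling (0.87). RBBP8 thus passed 2-fold in opposite directions in the daughter cells of the 2 lines. The limma fit passed 0 of the 31 genes in this comparison (adjusted p = 1 for each) and 2 of 14988 genes (0.0133%), and 0 of the 31 had an unadjusted p under 0.05.

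**Figure D4:**
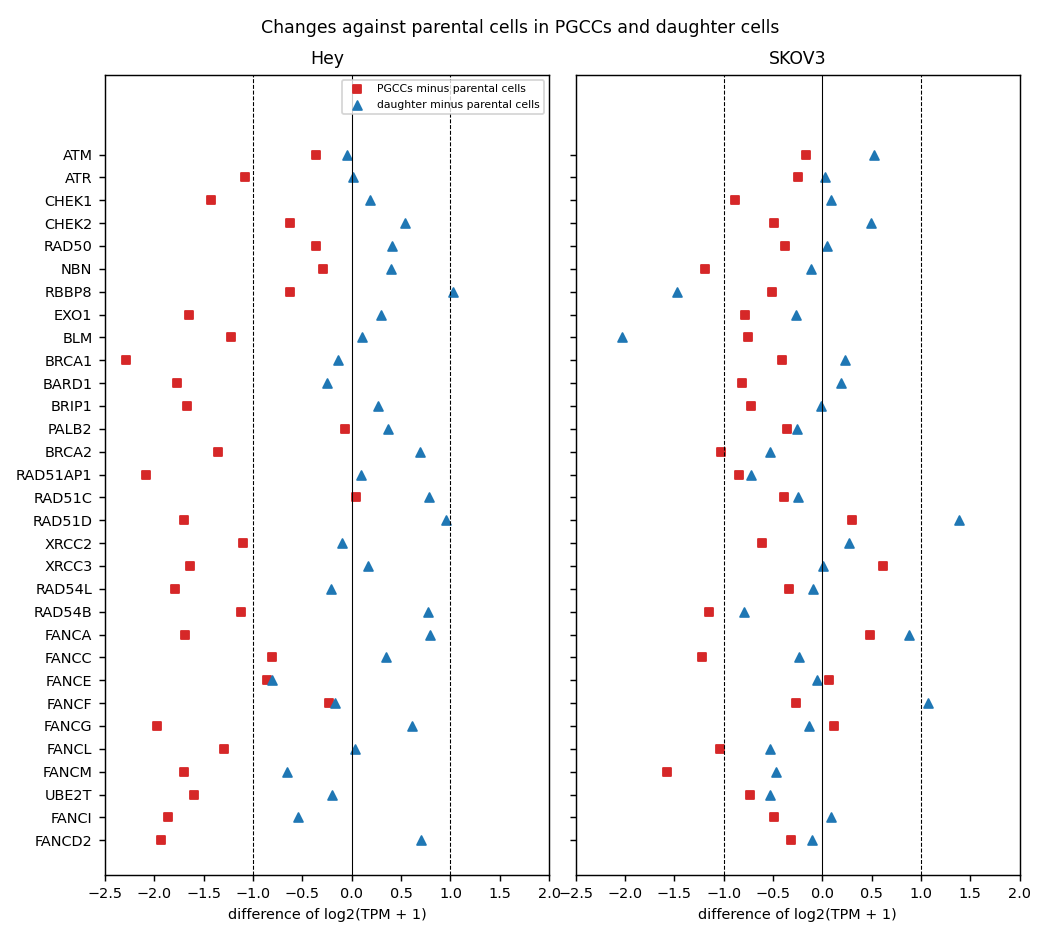
Difference of log2(TPM + 1) from parental cells for PGCCs (squares) and daughter cells (triangles) of Hey (left) and SKOV3 (right), 1 value per gene; dashed lines mark 2-fold. In Hey 21 squares lie beyond the lower dashed line and 0 triangles do, and in SKOV3 the 2 triangles beyond it are BLM and RBBP8.

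PGCCs against daughter cells share the PGCC libraries with the first comparison, so their values are given side by side with it and not as a second line of evidence. All 31 genes had lower levels in Hey PGCCs than in Hey daughter cells, beside 7785 of the 14988 genes tested. Of the 31, 24 were lower by at least 2-fold beside 9.95% of all genes tested, 0 were higher beside 8.13%, and the median was -1.40. RAD51D (-2.65), FANCD2 (-2.64), FANCG (-2.59) and FANCA (-2.48) differed most. FANCE (-0.05) and FANCF (-0.06) lay nearest to 0. In SKOV3, 26 of the 31 were below daughter cells, beside 8442 of the 14988 genes tested. Of the 31, 5 were lower by at least 2-fold beside 14.6% of all genes tested, 1 was higher beside 9.25%, and the median was -0.50 beside -0.12. The 5 were FANCF (-1.34), FANCM (-1.10), RAD51D (-1.09), NBN (-1.07) and BARD1 (-1.005), and the 1 higher was BLM (1.27). After removal of the GC and length trend FANCF alone was lower in SKOV3 (-1.10), and BLM (1.62) and RBBP8 (1.33) were higher. BARD1, RAD51D and FANCM were the 3 lower by at least 2-fold in both lines, beside 1.21% of all genes tested. The count was 0 with median-ratio scaling, with quantile scaling and with the trend removed, beside 0.901%, 0.987% and 0.958%. It was 6 without mitochondrial genes and 5 with a pseudocount of 0.1, beside 1.39% and 2.24%. In limma 0 of the 31 genes and 0 of 14988 (0%) passed (smallest adjusted p of a member 0.908), and 12 of the 31 were lower at an unadjusted p under 0.05, beside 3.08% of all genes tested.

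The parental libraries were also compared. Levels were higher in SKOV3 than in Hey for 25 of the 31, beside 9277 of the 14988 genes tested. The median difference was 0.77 beside 0.29 for all genes tested. BLM (2.06), FANCC (1.72), BRCA1 (1.38), RBBP8 (1.35) and FANCD2 (1.33) were among 9 genes higher by at least 2-fold in SKOV3, beside 24.2% of all genes tested. ATR (-1.09) was the 1 gene lower by that much, beside 11.5%. The number of genes under 5 TPM was 3 in Hey parental cells and 12 in Hey PGCCs, and 3 in SKOV3 parental cells and 5 in SKOV3 PGCCs. In TPM, which is per length, UBE2T was the most abundant of the 31 in Hey parental cells (64.1 TPM), NBN in Hey PGCCs (51.1 TPM) and RBBP8 in Hey daughter cells (87.5 TPM).

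Of 46 further homologous recombination and Fanconi genes, 13 were lower by at least 2-fold in Hey PGCCs and 0 higher (median -0.54), and 6 were lower and 5 higher in SKOV3 PGCCs (median -0.13), beside the shares of all genes given above. With the trend removed, 1 of 45 was lower and 1 higher in SKOV3 PGCCs (median -0.03). DNA2, a resection nuclease (-1.61 and -1.26), USP1, which removes ubiquitin from FANCD2 (-1.30 and -1.23), RMI1, a partner of BLM (-1.23 and -1.10), and the helicase WRN (-1.08 and -1.06) were lower by at least 2-fold in both lines. Outside the pathways, the same held for CLSPN, the adaptor that activates CHEK1 (-1.16 and -1.08), for PMS1 of mismatch repair (-1.39 and -1.03) and for the glycosylase NEIL3 (-1.91 and -1.34). The SKOV3 calls of all 7 ended with the trend removed, at values from -0.98 (CLSPN) to -0.35 (PMS1). Nucleotide excision repair had 0 of 18 genes lower by 2-fold in either line, with medians of -0.01 and 0.10. Lists between these were checkpoint signalling (4 of 16 in Hey and 3 of 16 in SKOV3), non-homologous end joining (2 and 0 of 10), mismatch repair (3 and 2 of 7) and base excision repair (6 and 1 of 19). With the trend removed, SKOV3 PGCCs had 1 of 16, 0 of 10, 0 of 7 and 1 of 18 of these lists lower by 2-fold. The shares of all genes given above stand beside these counts as well.

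Markers of dividing cells were low in the same PGCC libraries. Of 10 proliferation markers, 9 were lower by at least 2-fold in Hey PGCCs (median -2.07) and 6 in SKOV3 PGCCs (median -1.20), the latter 3 with the trend removed (median -0.70). Of all genes tested, 5.22% were lower by that much in Hey PGCCs and 4.96% in SKOV3 PGCCs, or 2.48% with the trend removed. The same shares stand beside the replication licensing counts below. MKI67 was at 60.5, 9.79 and 108 TPM in Hey and 122, 104 and 102 TPM in SKOV3, PLK1 at 92.6, 16.4 and 133 and 212, 185 and 117 TPM, and AURKA at 103, 32.3 and 226 and 196, 147 and 97.2 TPM. These were low in Hey PGCCs and within 2-fold of parental cells in SKOV3 PGCCs. CDK1 was at 151, 47.2 and 167 TPM in Hey and 279, 75.6 and 163 TPM in SKOV3, TOP2A at 229, 37.2 and 249 and 604, 177 and 388 TPM, and CCNA2 at 63.8, 9.84 and 68.4 and 128, 48.4 and 90.3 TPM. CDK1, TOP2A, CCNA2, CCNE2 (-1.65 and -1.48) and BUB1 (-2.09 and -1.39) were lower by at least 2-fold in PGCCs of both lines. With the trend removed this held for TOP2A, CDK1 and BUB1, with SKOV3 values of -1.30, -1.11 and -1.04. CCNB1 differed by -2.05 and -0.68, and PCNA by -0.52 and -1.0042. In daughter cells the markers had medians of 0.33 in Hey and -0.81 in SKOV3, and 4 of 10 were lower by 2-fold in SKOV3. With the trend removed 2 were. Of all genes tested, 6.34% were lower by 2-fold in SKOV3 daughter cells, or 5.74% with the trend removed. Replication licensing genes, which load the helicase at origins, had 10 of 15 lower by 2-fold in Hey PGCCs (median -1.75) and 0 of 15 in SKOV3 PGCCs (median -0.13, or -0.15 with the trend removed). The part of a lower share of dividing cells in the differences of the 31 genes was not tested.

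**Figure D5:**
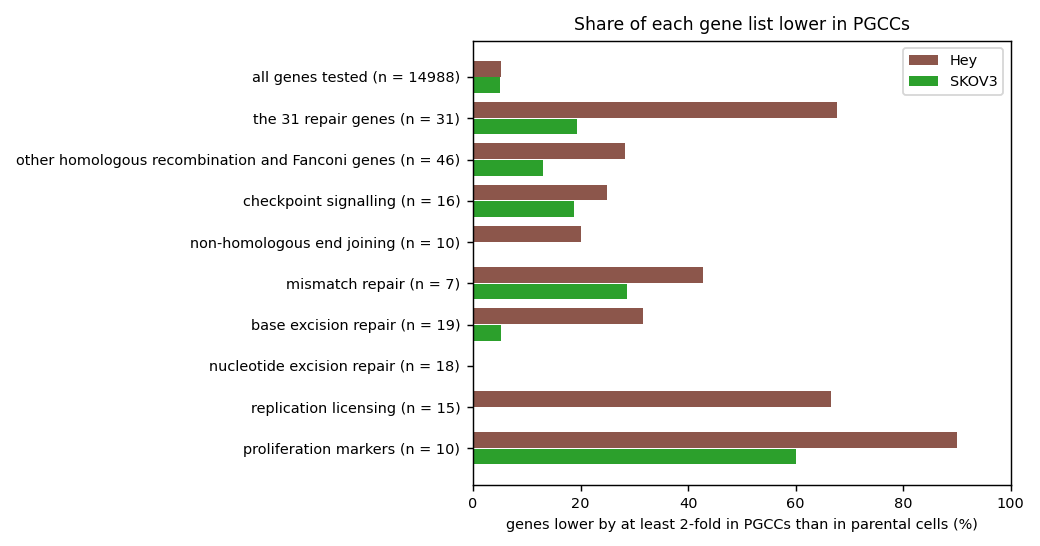
Percent of the genes of each list that were lower by at least 2-fold in PGCCs than in parental cells, Hey in brown and SKOV3 in green, with bars from 0 and the number of genes beside each name. In Hey the proliferation markers, the 31 repair genes and replication licensing stand highest, while in SKOV3 replication licensing, nucleotide excision repair and non-homologous end joining are at 0.

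Sequence near the starts of these genes was read for 3 short motifs linked to transcription in dividing cells. RefSeq windows on GRCh38.p14, from 250 bases before to 50 after a start, matched 28 of the 31 genes with 38 windows; NBN, RAD54B and FANCI had no entry. An E2F word (TTTCCCGC, TTTCGCGC, TTTGCCGC or TTTGGCGC), read on both strands like the other motifs, stood in 5 of 38 windows (13.2%), beside 3.31% of 35116 windows of all genes and 4.85% of 15354 windows of genes tested. The 5 genes were EXO1, XRCC2, FANCA, FANCC and FANCD2. A CHR word (TTTGAA or TTCGAA) stood in 4 windows (10.5%, beside 16.4 and 12.0%), and CCAAT in 18 (47.4%, beside 34.6 and 34.8%). No match overlapped a match of another motif, and 16 of the 38 windows held none of the 3. A match is a run of letters and does not show that a factor binds there. The stretches printed next were chosen after their matches were seen and overlap no annotated exon. They run 5′ to 3′ on the strand of the gene and carry the motif letters in capitals. The FANCC stretch lies inside its annotated gene, which reaches upstream to position 95426796. FANCM is shown as the gene lower by 2-fold in both lines under each setting of the scaling, pseudocount and GC trend, with 2 CCAAT matches and no E2F word. BRIP1 and UBE2T, lower by 2-fold in Hey PGCCs alone, each hold a CHR word and CCAAT, on either strand. FANCC, lower by 2-fold in SKOV3 PGCCs alone, holds 2 E2F words and a CHR word, and XRCC3, with opposite signs in the lines, holds CCAAT repeatedly.
FANCM, chr14:45135680-45135929 on the plus strand: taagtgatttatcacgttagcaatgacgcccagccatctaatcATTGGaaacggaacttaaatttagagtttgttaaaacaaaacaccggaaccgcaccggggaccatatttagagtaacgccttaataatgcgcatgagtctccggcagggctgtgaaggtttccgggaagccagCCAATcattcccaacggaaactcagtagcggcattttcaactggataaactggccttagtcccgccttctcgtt
BRIP1, chr17:61863560-61863778 on the minus strand: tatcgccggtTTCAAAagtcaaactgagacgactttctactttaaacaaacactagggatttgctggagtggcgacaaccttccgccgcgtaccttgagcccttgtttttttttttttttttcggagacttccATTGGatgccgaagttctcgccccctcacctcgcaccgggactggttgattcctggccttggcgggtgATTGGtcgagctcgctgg
UBE2T, chr1:202341985-202342186 on the minus strand: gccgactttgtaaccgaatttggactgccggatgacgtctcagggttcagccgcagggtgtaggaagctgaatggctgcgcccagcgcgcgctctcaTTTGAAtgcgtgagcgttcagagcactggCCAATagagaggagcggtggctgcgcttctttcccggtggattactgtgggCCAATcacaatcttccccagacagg
FANCC, chr9:95317716-95317959 on the minus strand: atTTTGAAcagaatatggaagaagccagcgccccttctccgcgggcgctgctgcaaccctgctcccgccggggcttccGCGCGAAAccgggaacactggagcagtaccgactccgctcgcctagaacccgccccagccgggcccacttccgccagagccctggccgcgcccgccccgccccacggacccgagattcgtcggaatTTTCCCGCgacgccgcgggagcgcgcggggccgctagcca
XRCC3, chr14:103715505-103715701 on the minus strand: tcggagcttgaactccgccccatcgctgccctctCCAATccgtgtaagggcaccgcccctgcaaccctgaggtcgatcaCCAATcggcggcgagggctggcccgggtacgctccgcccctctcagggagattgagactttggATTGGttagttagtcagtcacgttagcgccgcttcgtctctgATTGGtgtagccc

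Copies could blur a few values. Salmon assigns reads among transcripts that share sequence, and CHEK2, FANCD2, RAD51AP1 and RBBP8 have annotated pseudogene copies in the table. The 8 such copies were at 0.346 TPM or less in every library, so little signal was assigned to them. BRCA1 has a partial upstream copy and RAD51D an annotated read-through transcript with its neighbour, neither of which was matched by symbol in the table, and values of these genes carry that uncertainty.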

How the data were processed

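RNA sequencing of 6 libraries was used. The authors trimmed reads with fastp, quantified them on the human transcriptome (hg38) with Salmon 0.14.1 and deposited TPM values (transcripts per 1000000), 1 per gene symbol and library. The summing of transcripts into symbols and the annotation release are not given in the sources used here. The study's methods give a nearly equal total of mapped reads for each library. The table holds no counts per gene, so count tests were not used and no counting error per gene was computed.

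Differences of log2(TPM + 1) were taken within each line and called at 2-fold, with no p-value for 1 library against 1 library. A pseudocount of 1 understates the change of low genes. Genes whose TPM averaged 1 or more were tested. limma 3.58.1 in R 4.3.3 was fitted to log2(TPM + 1) of these genes with terms for the line and the state, a trended eBayes step and Benjamini-Hochberg adjustment over all 14988 genes. The fit leaves 2 residual degrees of freedom, with the second line as its only repeat. The GC and length trend was removed by lowess (fraction 0.3, 2 passes) with statsmodels 0.14.6 over 13468 genes matched to canonical transcripts of GENCODE release 44. Other steps used Python 3.11.15, numpy 2.4.6, pandas 2.3.3, scipy 1.17.1 and matplotlib 3.10.9. The limma and trend steps were tested on simulated data. Promoter windows come from RefSeq (GRCh38.p14), and positions from GENCODE on GRCh38.

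Alternatives were a pseudocount of 0.1, a threshold of 1.5-fold, median-ratio scaling, quantile normalization, removal of mitochondrial genes, stricter and absent filters on TPM, and limma without the cell line term. All 31 genes were named, with genes of 8 further lists that passed 2-fold in both lines and every proliferation marker. The genes and lists were chosen with earlier results of these data known. Another result is not reported here.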

Additional observations from a re-analysis of the deposited data

Results flagged for a closer look

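XRCC3, RBBP8 and BLM had opposite signs in the 2 lines, each by at least 0.5 on the log2(TPM + 1) scale. The difference between the lines was not tested, since each value compares 1 library with 1 library. XRCC3 differed between PGCCs and parental cells by -1.64 (Hey) and 0.61 (SKOV3), and between PGCCs and daughter cells by -1.80 (Hey) and 0.61 (SKOV3). Once the trend of GC and length was taken out, the SKOV3 values of XRCC3 were -0.26 and -0.04, so its SKOV3 direction rests on that setting. RBBP8 differed between daughter and parental cells by 1.02 in Hey and -1.47 in SKOV3, and between PGCCs and daughter cells by -1.65 in Hey and 0.96 in SKOV3. BLM differed between PGCCs and daughter cells by -1.33 in Hey and 1.27 in SKOV3. With that trend taken out RBBP8 was at 1.06 and -1.32 in daughter cells, and in PGCCs against daughter cells RBBP8 was at -1.70 and 1.33 and BLM at -1.33 and 1.62. RBBP8 and BLM share the SKOV3 daughter library, which is 1 clone.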

How the results depend on the processing

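No member called at 2-fold changed sign under the other pseudocount, scaling, quantile, mitochondrial or GC settings. In PGCCs against parental cells, SKOV3 had 6 lower members, which became 14 at 1.5-fold and 2 with the GC and length trend removed (median -0.26), with 1 higher at 1.5-fold. Of all genes, 4.96% were lower there, or 2.48% with the trend removed. Shares of all genes at 1.5-fold are not given here, so the counts at 1.5-fold stand without a background. The Hey median became -1.64 with a pseudocount of 0.1, and -1.67 against daughter cells. Hey daughter cells had 2 lower members at 1.5-fold, and their 1 higher member became 2 with a pseudocount of 0.1, 8 at 1.5-fold, 2 without mitochondrial genes and 0 with median-ratio or quantile scaling. Of all genes, 6.31% were higher there. That share was 10.9% with that pseudocount, 7.37% without mitochondrial genes, 5.46% with median-ratio scaling and 4.64% with quantile scaling. SKOV3 daughter cells had 4 lower at 1.5-fold and 4 with quantile scaling, 1 higher with median-ratio and 1 with quantile scaling, and a median of -0.30 with median-ratio scaling. Of all genes, 6.34% were lower there, or 9.45% with quantile scaling. The share higher was 15.1%, or 11.3% with median-ratio and 10.5% with quantile scaling. SKOV3 PGCCs against daughter cells had 5 lower, which became 12 at 1.5-fold, 1 with median-ratio scaling, 2 with quantile scaling, 8 without mitochondrial genes and 1 with the trend removed. Of all genes, 14.6% were lower there. That share was 11.4% with median-ratio scaling, 11.6% with quantile scaling, 17.8% without mitochondrial genes and 12.3% with the trend removed. In the same comparison the higher members became 3 at 1.5-fold and 2 with median-ratio scaling, with quantile scaling and with the trend removed, and the median became -0.29 with quantile scaling and -0.24 with the trend removed. The share of all genes higher was 9.25%. It was 11.1% with median-ratio scaling, 12.6% with quantile scaling and 5.92% with the trend removed. Leaving out mitochondrial genes moved the median of all genes from 0 to 0.11 in Hey PGCCs. Causes of these shifts were not tested. The lines share replicate number 1, and limma with no replicate block (no cell line term) passed 0 members in each comparison, as did the other limma settings. Leaving out a replicate was not possible within a line. No counts per gene are in the table, and the counting precision of low values such as RAD51D in Hey PGCCs was not computed.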
